A study of Mus musculus with 4 samples.

Results

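The endogenous pluripotency genes, 10 of the 22221 genes with a named probe on the arrays, were followed in cardiac mesenchymal progenitors (CMPs) exposed to reprogramming factors. The genes were Pou5f1, Sox2, Nanog, Esrrb, Zfp42, Sall4, Lin28a, Tdgf1, Utf1 and Fut4, and their 16 probes were taken by the gene name given in the array files. CMPs were Sca-1+ cells from the heart of adult C57BL/6 mice, grown on collagen I in DMEM/F12 with serum and, by the labels, 40 ng/ml bFGF. RNA came from untreated CMPs (CMP control) and from CMPs carrying Oct4, Sox2, Klf4 and c-Myc from Sendai virus (OSKM-CMPs) at days 4, 6 and 8. The control is labelled by its treatment (none) and not by a day of harvest. Total RNA (250 ng) was labelled with Cy3 and hybridised to single-colour Agilent mouse arrays, 1 array per condition and 4 in all.

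The design set several limits on each group. No condition had a replicate, so no test was possible and the number of arrays limits the precision. The control was a single array without virus, and its day of harvest is not given. No array carried virus without the factors. The factors, the infection, the medium and the days in culture thus cannot be told apart. The OSKM-CMPs had been moved to a reprogramming medium based on knockout DMEM, without leukemia inhibitory factor (LIF). The paper's methods list bFGF in the growth medium of CMPs but not in this medium, while the labels give 40 ng/ml for all 4 samples. By the paper's methods, cells for transduction were seeded on Geltrex-coated plates. Any difference in coating or bFGF from the control cannot be told apart from the factors either. The study asked whether reprogramming factors turn CMPs into other cell types. All 6 markers of cardiac mesenchymal progenitors looked at here (Ly6a, which encodes Sca-1, Thy1, Pdgfra, Cd44, Eng and Itgb1) were well above background on every array, though by day 8 Ly6a had risen and Thy1, Eng and Itgb1 had fallen at least 2-fold. All 3 germ cell markers (Ddx4, Dazl and Dppa3) were well above background on none. The 4 adipocyte markers (Fabp4, Adipoq, Plin1 and Cidec) had all risen at least 2-fold by day 8, and their part in the values below was not tested.

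Pou5f1 (Oct4), Sox2 and Nanog are the core transcription factors of embryonic stem cells, bind many of the same enhancers and keep one another active. In fibroblasts their loci are silent. During reprogramming the factors supplied from outside act first, while the cell's own Pou5f1, Sox2 and Nanog are switched on late. Earlier changes in fibroblasts are loss of mesenchymal genes, gain of epithelial genes such as Cdh1, and display of the surface sugar SSEA-1, which fucosyltransferases such as Fut4 can make.

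The results turn on what each 60-base probe can read, so stretches of 30 bases of the probes of 5 genes are shown, 5′ to 3′, as the array files give them. Capitals mark bases in runs of 14 that also lie, on either strand, in the promoters (RefSeq, GRCm38.p6, 300 bases each) of at least 10 other genes. All probe positions are mm9, copied from those files.
Pou5f1, A_51_P202340, bases 1 to 30: aagtattgagtattcccaacgagaagagta
Nanog, A_55_P2007699, bases 1 to 30: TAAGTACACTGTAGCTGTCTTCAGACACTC
Sall4, A_55_P2173546, bases 1 to 30: attcaccaacgccgtcatgttacagcagca
Sall4, A_51_P145260, bases 1 to 30: gcctccctccaacatttatccgagcacagc
Sall4, A_51_P349087, bases 1 to 30: tgcgaccacccaagtattgccaggtcttaa
Tdgf1, A_55_P2183147, bases 1 to 30: tgatgctcacagtgaatccctaatgttacc
Tdgf1, A_55_P2058540, bases 1 to 30: gttattattaaatcccagtgtgcaactgga
Tdgf1, A_55_P1968028, bases 7 to 36: AGAAACCCTGTCTCGgggagAAAAAAGAGA
Fut4, A_52_P200458, bases 1 to 30: atgttaatgagatattggccaggcgtctta
Fut4, A_55_P2095609, bases 1 to 30: acatcacctctttctgggatgagcaatggt

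Of the 16 probes, 2 held such repeated runs, those of Nanog and the third Tdgf1 probe shown, against 3.33% of the 31220 probes of named genes. In the Nanog probe, 50 of the 60 bases lay in repeated runs, and 1 run was found in the promoters of 52 other genes. In the Tdgf1 probe the count was 35 bases, with 1 run found in 45 other promoters. For the other 14 probes the most widely shared run was found in 5 other promoters, and no base is in capitals. The Pou5f1 probe spans 61 positions of chromosome 17 for its 60 bases (35647280 to 35647340, plus strand) and shares at least 20 bases in a row with 1 probe of another array name, Gm5712, which was well above background on no array.

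Detection was read from the flag of the Feature Extraction software for a signal well above background. By at least 1 probe, 7 of the 10 genes were well above background on all 4 arrays (Nanog, Esrrb, Sall4, Lin28a, Tdgf1, Utf1 and Fut4), and 3 were so on no array (Pou5f1, Sox2 and Zfp42). None was so on 1 to 3 arrays. Of all 22221 named genes, 65.5% were well above background on all 4 arrays, 25% on none and 9.5% on 1 to 3, so the share among the 10 genes was near that of the array. None of the 10 genes changed its detection between the control and any OSKM array. Probe by probe, 7 of 16 were well above background on all arrays, 8 on none and 1 on the control array alone, against 51.7% and 36.2% of all probes for the first pair.

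**Figure D1:**
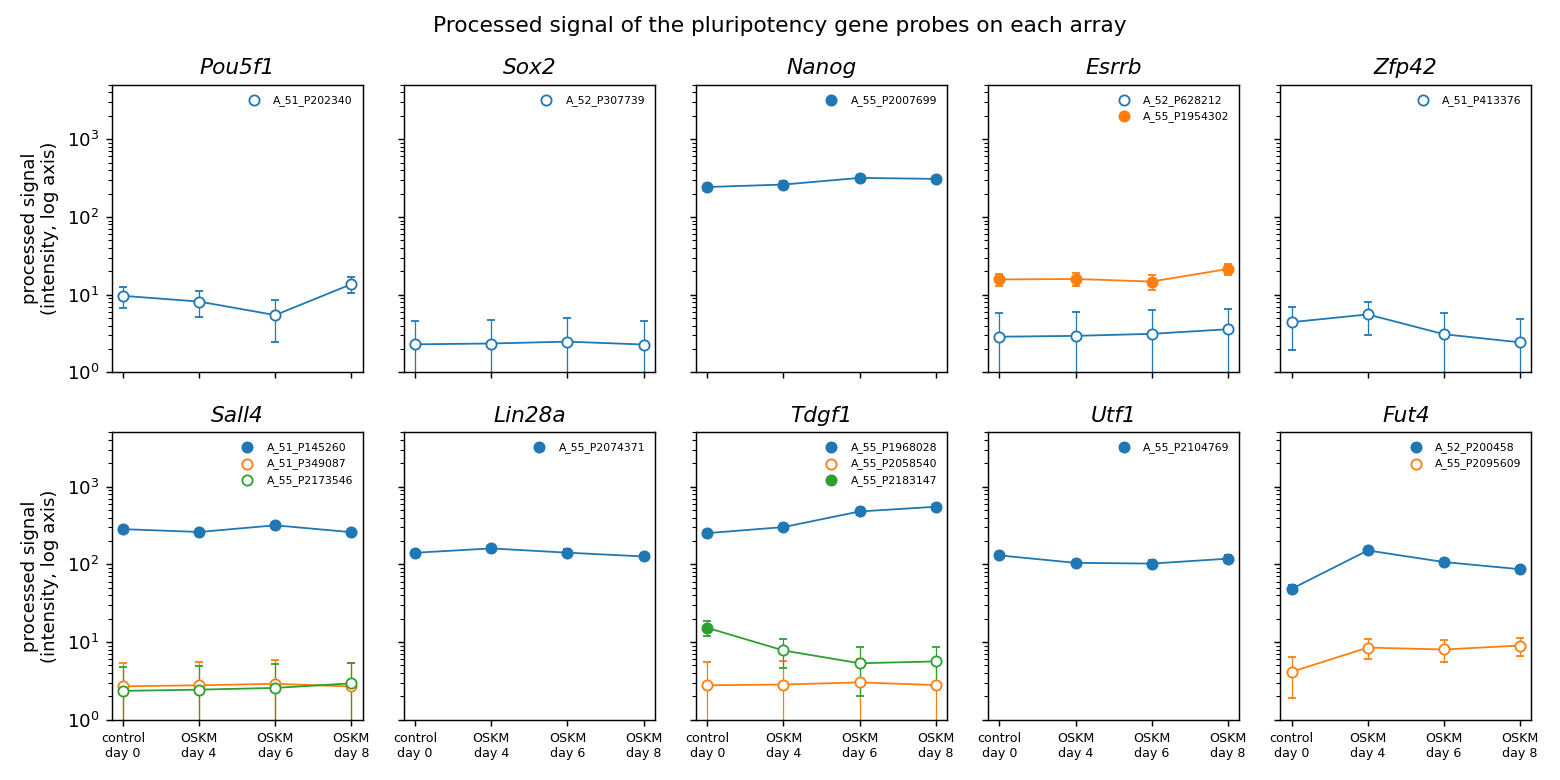
Processed signal (background-subtracted Cy3 intensity, log axis) of each probe of the 10 genes on the 4 arrays, with 1 colour per probe, filled points where the probe was well above background and open points where it was not. The control is marked day 0 on the axis, a day that its label does not give. Error bars are the error given by Feature Extraction for the spot and are clipped at the lower edge of the axis. Pou5f1, Sox2 and Zfp42 have open points only, Fut4 probe A_52_P200458 peaks at day 4, and the Tdgf1 probes go different ways.

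The 3 genes without a detected probe include 2 of the delivered factors. For Pou5f1, the POU factor at the centre of the network, the processed signal was 9.66 ± 2.87 in the control (± is the error of the spot by Feature Extraction), 8.15 ± 2.93 at day 4, 5.46 ± 3.03 at day 6 and 13.6 ± 3.07 at day 8. For Sox2, the partner of Pou5f1 on DNA, it was 2.30, 2.35, 2.49 and 2.28 in the same order, each with an error as large as the signal, since Feature Extraction puts a substitute value where a spot does not exceed its background. For Zfp42 (Rex1), a zinc finger gene marking the naive state, it was 4.43, 5.57, 3.10 and 2.43. The Pou5f1 signal was highest at day 8 and its errors overlapped between the control and day 8, while Sox2 stayed at the bottom of the range. From the control to day 8, the lowest signal of any probe flagged well above background was 9.61, 10.7, 8.53 and 10.4. The Pou5f1 signals in the control and at day 8 lay above that lowest signal without carrying the flag, and all signals of Sox2 and Zfp42 lay under it. No fold change is given for these genes. Whether the mouse probes also bind RNA of the factors made by the virus was not tested.

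For Nanog, the homeobox factor that holds the network in its active state, the single probe (chromosome 6, 122663676 to 122663735, plus strand) read 243 ± 24.4 in the control and 261 ± 26.2, 318 ± 31.9 and 309 ± 31.0 on the arrays of days 4, 6 and 8. After scaling each array to its 75th percentile, the differences from control were 0.11, 0.33 and 0.27 on the log2 scale, with an error of 0.20 for each. This is the probe printed above in capitals. At least 20 of its bases in a row were shared with 13 probes of other array names, 12 of them on the opposite strand. Those 12 were all well above background on all 4 arrays, which does not tell what the Nanog probe bound. The 1 on the same strand, named Zfp872, was well above background on 2 arrays. On either strand, 25 probes of other names held a repeated run of the Nanog probe. Of these, 23 were measured on the control and day 8 arrays, with a median difference of 0.08. Among the 23, 3 differed more upward than the Nanog probe. Whether the signal came from the Nanog transcript or from other RNA with the same run was not tested.

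Esrrb, an orphan nuclear receptor that can stand in for Nanog in reprogramming, had 1 of 2 probes detected. Probe A_55_P1954302 (chromosome 12, 87862509 to 87862568, plus strand) read 15.7 ± 2.95 in the control and 15.9 ± 3.00, 14.8 ± 3.11 and 21.4 ± 3.30 on the arrays of days 4, 6 and 8. The day 8 value was the highest, with a log2 difference from control of 0.37 ± 0.35, about the size of its error. This difference was 0.10 with the array median and 0.09 with either quantile normalization. The other probe, lying upstream on the same strand (87856069 to 87856128), ranged from 2.88 to 3.59 and was never well above background.

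Sall4, a zinc finger factor that binds with Pou5f1 and Nanog, had 3 probes on the minus strand of chromosome 2, of which 1 was detected. Probe A_51_P145260 (168578172 to 168578231) read 284 ± 28.5 in the control and 261 ± 26.2, 318 ± 31.9 and 260 ± 26.1 on the arrays of days 4, 6 and 8. Its log2 differences from control were -0.12, 0.10 and -0.21, with errors of 0.20, so that no day stood apart. The probes on either side of it were well above background on no array. A_55_P2173546 (168580437 to 168580496) read 2.35 to 2.94, and A_51_P349087 (168574333 to 168574392) read 2.68 to 2.90. The 3 probes of Sall4 thus disagree on detection.

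Lin28a, an RNA-binding protein that blocks maturation of the let-7 microRNAs, had 1 probe (chromosome 4, 133559245 to 133559304, minus strand) that read 141 ± 14.3, 160 ± 16.2, 141 ± 14.4 and 126 ± 12.9 from the control to day 8. Its log2 differences from control were 0.19, -0.06 and -0.24, each with an error of 0.21. Utf1, a chromatin-bound protein of undifferentiated embryonic cells, had 1 probe (chromosome 7, 147130950 to 147131009, plus strand) with 130 ± 13.2, 105 ± 10.7, 102 ± 10.5 and 118 ± 12.1. Utf1 was lower than control on all 3 OSKM arrays, with log2 differences of -0.31, -0.41 and -0.22 and errors of 0.21. Neither gene came near 2-fold.

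Tdgf1 (Cripto), a membrane-anchored coreceptor for Nodal, had 3 probes on the minus strand of chromosome 9, and they went different ways. Probe A_55_P1968028 (110842722 to 110842781) read 252 ± 25.3 in the control and 302 ± 30.3, 480 ± 48.0 and 551 ± 55.2 on the arrays of days 4, 6 and 8. It was higher at every later time, by 0.26 ± 0.20, 0.86 ± 0.20 and 1.05 ± 0.20 on the log2 scale, the last a fold change of 2.07. Under other scalings the day 8 difference was below 2-fold, at 0.78 with the array median, 0.98 with quantile normalization and 0.88 with normexp and quantile normalization. Probe A_55_P2183147 (110843099 to 110843158) was detected in the control alone, at 15.2 ± 3.35, and read 7.80, 5.34 and 5.64 later, at least 1.42-fold, 1.86-fold and 1.55-fold lower than control. Probe A_55_P2058540 (110842866 to 110842925), which lies between them, read 2.78 to 3.03 and was never detected. The probe that was higher is the one with repeated runs. Of the 25 probes of other names that held one of those runs on either strand, 24 were measured on the control and day 8 arrays. None of these was 2-fold higher or lower at day 8, their median difference was 0.10, and none differed more upward than the Tdgf1 probe. At day 4, 2 of the 24 differed more upward than the Tdgf1 probe, and at day 6, 1 did. Whether the signal came from the Tdgf1 transcript or from other RNA with these runs was not tested. A single value for Tdgf1 depended on its dim probe. The mean of the signals of its 2 probes detected on any array, the rule used for genes, differed from control by -0.35, -0.36 and -0.23, and with the dim probe at its bound on the later arrays by -0.12, -0.02 and 0.21, so that no direction is given for the gene.

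Fut4, a fucosyltransferase that builds the SSEA-1 (CD15, Lewis X) sugar, showed the widest change of the 10 genes. Probe A_52_P200458 (chromosome 9, 14553224 to 14553283, minus strand) read 48.5 ± 5.48 in the control and 151 ± 15.3, 107 ± 11.1 and 86.6 ± 9.04 on the arrays of days 4, 6 and 8. All 3 OSKM arrays were above the control, and the level was highest at day 4 and lower at each later day. The log2 differences from control were 1.64 ± 0.22, 1.08 ± 0.22 and 0.76 ± 0.22, or 3.12-fold, 2.12-fold and 1.69-fold. From day 4 to day 8 the difference was -0.88 ± 0.21. The second probe, A_55_P2095609 (14555189 to 14555248), read 4.14 ± 2.21, 8.49 ± 2.40, 8.03 ± 2.52 and 9.03 ± 2.36 and never carried the flag. Quantile normalization of normexp-corrected signals put the first probe at 0.94, 0.53 and 0.30, under 2-fold on every day. That setting adds an offset of 50 to each signal, beside a control reading of 48.5, which makes folds of dim probes smaller. It therefore cannot decide whether this change reached 2-fold. With the array median and with quantile normalization, which add no offset, the first probe stayed above 2-fold at day 4, at 1.5 with each. At day 6 it was under 2-fold with both, at 0.95 and 0.92.

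**Figure D2:**
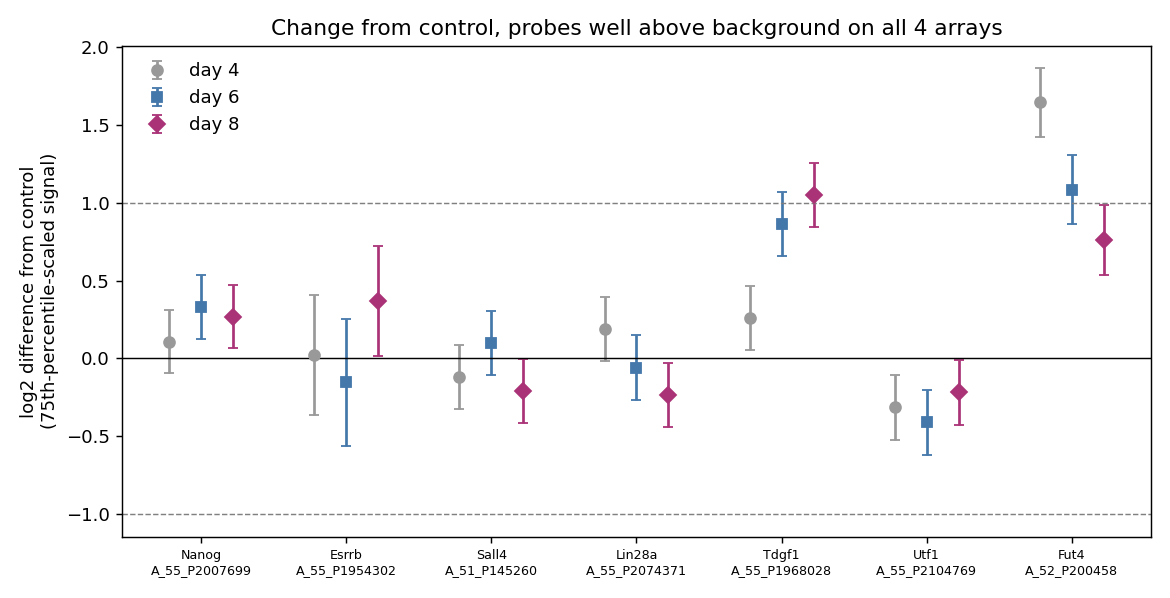
Log2 difference from the CMP control at days 4, 6 and 8 for the 7 probes well above background on all 4 arrays, after scaling each array to its 75th percentile, with the Feature Extraction error of the difference as bars and 2-fold as dashed lines. Fut4 lies above 2-fold at days 4 and 6, Tdgf1 probe A_55_P1968028 at day 8, and the other 5 probes stay between -0.41 and 0.37.

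In humans CD15 is also carried by myeloid cells, so leukocyte markers are given beside Fut4. The CD15 sugar itself was not measured in these mouse samples. Of 8 such markers, 7 were well above background in the control and 4, 5 and 6 on the arrays of days 4, 6 and 8, and Coro1a rose at least 2-fold on each day. Cd68 differed by 1.04, 1.49 and 1.56, though with its dim probe at a bound by 0.65 at day 4 and 0.96 at day 6. Ptprc (CD45), which defines leukocytes, read 14.8 in the control and 17.6 and 15.8 at days 6 and 8, was not well above background at day 4, and Laptm5 was detected on no array. Tyrobp was well above background in the control alone, at 15.5, and was at least 1.44-fold, 1.89-fold and 1.57-fold lower on the later arrays. Cd52 lost the flag at days 4 and 6 and differed by -0.12 at day 8. Itgam differed by -0.23, -0.17 and -0.10, and Fcer1g by 0.22, 0.22 and 0.51, so the leukocyte markers went different ways. The part of leukocytes in the Fut4 result was not tested. Of 7 other fucosyltransferases, 4 could be compared, and none of them changed 2-fold on any day. Fut7, which acts on selectin ligands, read 14.6, 10.3, 13.1 and 17.4, and Fut8, which adds core fucose, differed by -0.24 at day 8. Fut10 and Fut11 differed by 0.03 and 0.05 at day 8. Fut9, the main maker of SSEA-1 in mouse embryonic cells, was detected on no array.

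Counting each gene once, 1 of the 7 detected genes, Fut4, rose at least 2-fold at day 4 and at day 6, and none fell. On the whole array 10.6% of the genes compared rose and 8.5% fell at day 4, and 11.6% rose and 10.9% fell at day 6. At day 8 none of the 7 rose or fell, against 12.8% and 10.8% of all genes. The median log2 difference of the 7 genes was 0.02, -0.06 and -0.21 at days 4, 6 and 8, and that of all genes compared was -0.02, -0.04 and -0.04. With dim probes at their bounds the median of the 7 genes was 0.02, -0.02 and 0.21, so its sign at day 8 turned with the dim Tdgf1 probe. Of the 7 probes measured on all arrays, 6, 5 and 5 lay within 0.5 of control on days 4, 6 and 8, while 65.4%, 60.2% and 56.4% of all measured probes did. Probe by probe, 8 of the 16 could be compared with control, and 1 of these rose at least 2-fold on each day (Fut4 at days 4 and 6, Tdgf1 at day 8) against 9.1%, 10.5% and 12.5% of all probes compared, and none fell against 7.03%, 9.72% and 9.12%. Between the OSKM arrays none of the 7 probes that could be compared changed 2-fold. There 1.8% of all probes rose and 1.88% fell from day 4 to day 6, 3.77% and 2.57% did so from day 4 to day 8, and 2.13% and 0.614% from day 6 to day 8. The counts of the 10 genes were thus close to the background of the arrays.

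For the 3 genes with the widest range of gene values and detection on all arrays, the genes with the most similar course over the 4 arrays were sought among 14539 genes. For Fut4 these were Il4i1 and Ces1a, with a root mean square difference of 0.06 and 0.07 on the log2 scale. Il4i1 differed from control by 1.71, 1.02 and 0.84. Only 13 genes came within 0.1 of Fut4. For Esrrb, whose range was 0.52, the closest were Pde8a and Lhb, with 124 genes within 0.1. For Lin28a they were Rps15a-ps2 and Bcor, with 957 genes within 0.1, so that a course as flat as that of Lin28a was common.

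POU factors bind an octamer whose core reads TTTGCAT, and this core was searched on both strands of the promoters. Of the 10 genes 9 had a promoter in the RefSeq table, and 3 of these held the core within its 300 bases, against 5.24% of 27025 genes. The windows are shown because they belong to Sox2, Nanog and Zfp42, of which Sox2 and Zfp42 were detected on no array. Capitals mark the core, on the strand of the gene or, for Sox2, on the other strand; positions are on GRCm38.p6.
Sox2, chr3:34649885-34649914, plus strand: cgccccctttcATGCAAAaccctctggcga
Nanog, chr6:122707403-122707432, plus strand: ttacagcttctTTTGCATtacaatgtccat
Zfp42, chr8:43307176-43307205, minus strand: ctgaagaggcaTTTGCATaactgagcaaga
The core lay 99, 75 and 185 bases before the start site in the same order, for Nanog counted from the more upstream of its start sites. In CpG content these promoters differed widely, with 27 CpG sites in 300 bases for Sox2, 11 for Zfp42 and 4 for Nanog, beside a median of 7 over all promoters. Methylation was not measured in these samples. A match describes the letters in the window and not binding.

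The other transcription factors of the pluripotency network formed a list of 28 genes. Over all genes compared at day 8, 12.8% rose and 10.8% fell. At day 8, 2 of the 23 compared rose (Sall1 and Tbx3) and 10 fell, with a median of -0.81 on the log2 scale, against -0.04 over all genes. Mycn, a Myc family member that drives growth of embryonic stem cells, read 835 in the control and 8.00, 4.26 and 3.68 afterwards, at least 77.7-fold lower at day 4 and 85.1-fold lower at day 8. Myc itself, also a delivered factor, read 874, 139, 122 and 109. Whether its mouse probe also binds RNA of the factor made by the virus was not tested. Etv4, an ETS factor downstream of FGF signaling, read 3474, 338, 267 and 210, a log2 difference of -4.13 ± 0.15 at day 8, and Mybl2, a cell cycle factor, read 1334, 542, 366 and 227, a difference of -2.63 ± 0.15. All 4 were lower than control on each later array. Whether bFGF in the medium had a part in the Etv4 values was not tested. Prdm14, Nr0b1, Nr5a2, Foxd3 and Dppa2 were detected on no array.

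Among 27 genes enriched in embryonic stem cells, 9 were detected on no array. Of the 18 compared at day 8, 5 rose and 3 fell, with a median of -0.11. Of all genes compared, 12.8% rose and 10.8% fell. Cdh1 (E-cadherin) read 2.67 in the control, where it was not well above background, and 77.4, 73.5 and 117 afterwards, at least 8.07-fold higher at day 4 and 11.5-fold at day 8. L1td1, an RNA-binding protein of embryonic stem cells, read 19.3, 82.9, 92.3 and 72.9, a log2 difference of 1.84 at day 8. Alpl, the alkaline phosphatase used as a stain for pluripotent colonies, went the other way, with 233, 30.1, 18.2 and 51.1. Dnmt3l, a cofactor of the de novo DNA methyltransferases, read 450, 76.8, 85.6 and 140.

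Of 18 epithelial genes of the kind gained during early reprogramming, 6 were well above background in the control and 11 at each later time. Of the 11 compared, 7 rose at day 4, 6 at day 6 and 6 at day 8, with 1 (Esrp2) falling each time. Over all genes, 10.6%, 11.6% and 12.8% rose on these days, and 8.5%, 10.9% and 10.8% fell. Krt8, a keratin of simple epithelia, read 3.22 in the control and 808, 539 and 792 afterwards, at least 84.2-fold, 53.7-fold and 78.0-fold higher. Dsp (desmoplakin), part of desmosomes, read 6.34, 332, 457 and 904, at least 89.1-fold higher at day 8, and Krt19 read 613, 2907, 5062 and 4344. Krt18, another keratin, read 224, 474, 191 and 138, a log2 difference of -0.77 at day 8. Cldn4 and Esrp1 differed by -0.02 and -0.18 at day 8. The 7 genes not compared, Epcam, Ocln, Cldn6, Crb3, Ap1m2, Grhl2 and Ovol1, were detected on no array, so the list did not move as one.

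**Figure D3:**
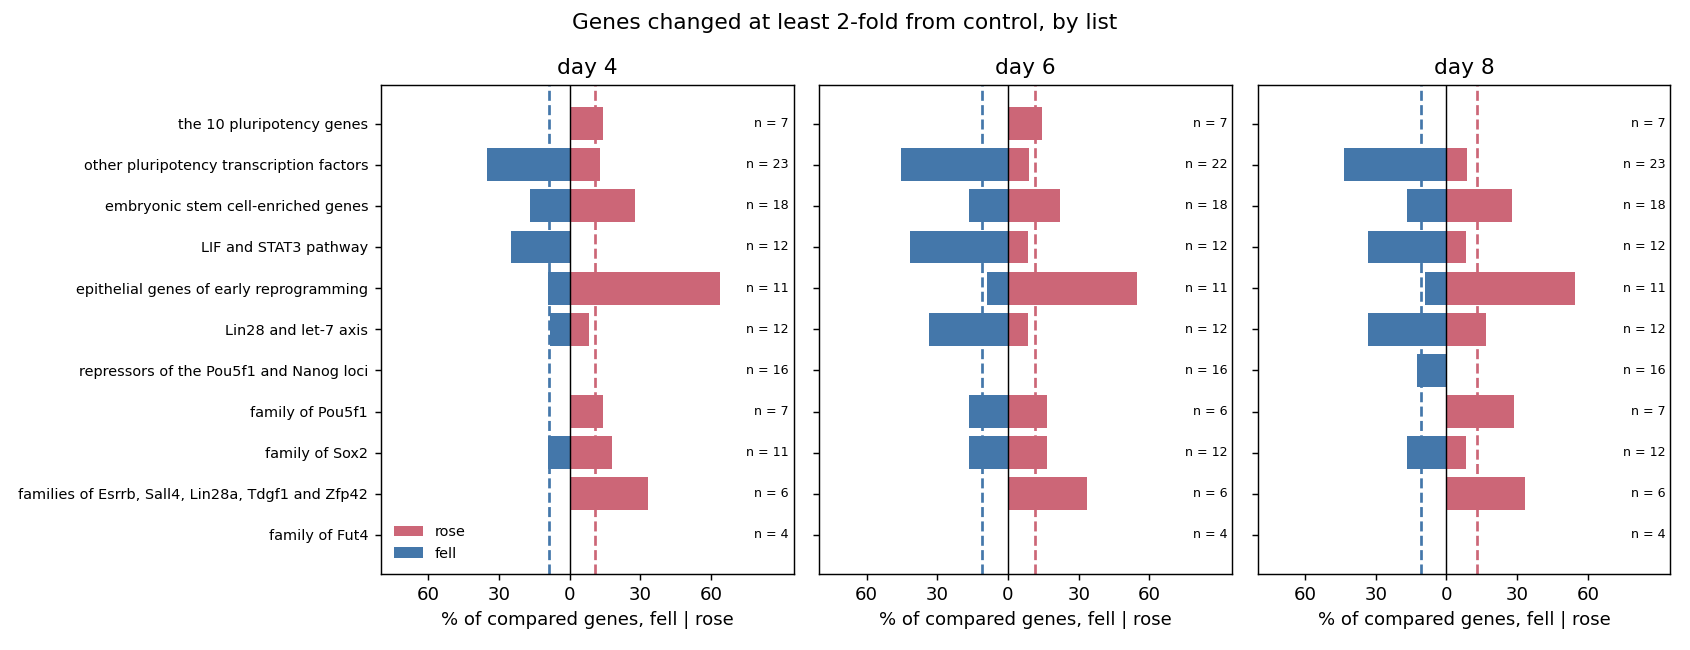
Share of the compared genes of each list that rose (right) or fell (left) at least 2-fold from the CMP control at days 4, 6 and 8, with the number compared beside each bar and the share of all genes compared as dashed lines. For the 10 pluripotency genes the bar stands for 1 gene at days 4 and 6 and is absent at day 8, while other pluripotency transcription factors extend to the left and epithelial genes to the right.

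LIF signals through Lifr, the shared subunit Il6st (gp130) and Stat3 to keep mouse embryonic stem cells undifferentiated. All 12 genes of this pathway looked at were detected on all arrays. At day 8, 1 rose and 4 fell, against 12.8% and 10.8% of all genes. Their median log2 difference was -0.80. Il6st read 17632 in the control and 7375, 6923 and 8100 afterwards. Socs3, a feedback inhibitor induced by Stat3, read 3342, 1365, 964 and 786, a log2 difference of -2.17 ± 0.20 at day 8, and Lif differed by -1.14 ± 0.29. Lifr was higher than control, by 1.13 ± 0.12 at day 8, with its 3 probes between 0.80 and 1.68.

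In the Lin28 and let-7 axis, where Lin28 proteins hold let-7 down and let-7 represses growth genes such as Hmga2, 2 of 12 genes rose and 4 fell at day 8. Over all genes, 12.8% rose and 10.8% fell at day 8. Lin28b was detected on no array. Hmga2 read 2955, 1544, 1042 and 767, a log2 difference of -2.02 ± 0.14 at day 8, and Igf2bp1 read 105, 84.1, 31.9 and 26.8. Igf2bp3 went the other way, with 131, 804, 735 and 657, a difference of 2.25 ± 0.21. Trim71, a let-7 target that also stood in the list of stem cell genes, was detected in the control alone, at 28.1, and was at least 2.86-fold lower at day 8.

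All 16 genes listed here as repressors of the Pou5f1 and Nanog loci were detected on all arrays. Whether each of them represses these loci in CMPs was not tested. None rose or fell 2-fold at days 4 and 6, against the shares given above for all genes. At day 8, 2 fell, against 10.8% of all genes. The first was Nr2f1, an orphan receptor that binds the Pou5f1 promoter, with a log2 difference of -1.11 ± 0.14, and the second Dnmt1, the maintenance DNA methyltransferase, with -1.19 ± 0.20. Nr2f2 differed by 0.88 ± 0.20 and Mbd3, of the NuRD complex, by -0.70 ± 0.14.

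**Figure D4:**
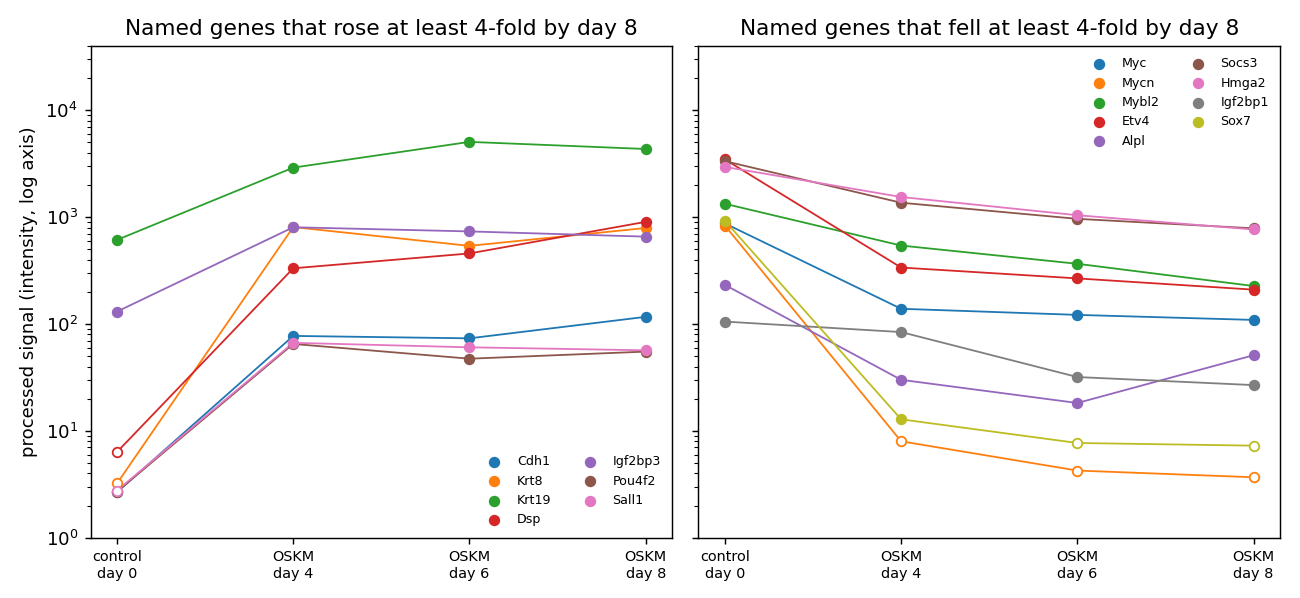
Processed signal (log axis) on the 4 arrays of the genes named from the other lists whose level rose (left) or fell (right) at least 4-fold between the CMP control and day 8, with filled points where the gene was well above background. The control is marked day 0 on the axis, a day that its label does not give. Cdh1, Krt8, Dsp, Sall1 and Pou4f2 have open points in the control and filled points afterwards, and Mycn is filled in the control alone.

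Relatives of the 10 genes were read in the same way. Among 12 POU genes, 2 of the 7 compared rose at day 8, against 12.8% of all genes. Pou4f2, a factor of sensory neurons, read 2.71 in the control and 65.1, 47.4 and 55.2 afterwards, at least 5.44-fold higher at day 8, and Pou2f3 was at least 3.21-fold higher. Pou2f1 (Oct1), the widely expressed member, differed by 0.28 ± 0.15. Among 18 SOX genes, 1 of the 12 compared rose at day 8 and 2 fell, against 12.8% and 10.8% of all genes. Sox4 read 1692, 4758, 5086 and 5118, a difference of 1.52 ± 0.12. Sox7 read 926, 12.8, 7.71 and 7.28, at least 94.2-fold lower at day 8, and Sox18 was at least 2.08-fold lower, while Sox13 differed by -0.50 ± 0.20.

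Sox7 and Sox18 are F-group SOX factors of endothelium, and endothelial markers moved beside them. Of 5 such markers, 5 were detected in the control and 3 at each later time, and 3 (Cdh5, Tek and Emcn) fell at least 2-fold on each day, while Pecam1 and Kdr differed by 0.10 and -0.27 at day 8. Their part in the SOX result was not tested, and fewer cells of a type and less RNA per cell cannot be told apart in such samples.

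Of 9 relatives of Esrrb, Sall4, Lin28a, Tdgf1 and Zfp42, 2 rose at day 8 and none fell among the 6 compared. The shares over all genes were 12.8% and 10.8%. Sall1, the paralog of Sall4, read 2.77 in the control and 66.7, 60.6 and 56.8 afterwards, at least 6.95-fold higher at day 4 and 5.59-fold at day 8. Esrrg, the paralog of Esrrb, was not detected in the control and was at least 2.35-fold higher at day 8, while Esrra, the member active in oxidative metabolism, differed by 0.52 ± 0.20. Yy2, from the family of Zfp42, differed by -0.55 ± 0.22. Sall3, Lin28b and Cfc1, the relative of Tdgf1, were detected on no array.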

How the data were processed

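The authors labelled RNA with Cy3, scanned the arrays and deposited, for each spot, an intensity (Agilent Feature Extraction's background-subtracted processed signal), its error and flags. Feature Extraction is version 9.5.3 in the submitters' processing notes and 10.7.3.1 in the file headers. They also deposited a normalized table made in GeneSpring, with log2 values that equal the log2 processed signal less a constant per array (all probes within 0.01, column medians of -4.22, -4.08, -4.09 and -3.96); it is on the log2 scale, set so that the 75th percentile is near 0.

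Control spots and outlier spots were left out. Spots of 1 probe were averaged as log2 processed signal (55681 probes), and each array was centred on its 75th percentile (a signal of 389 for control, then 388, 406 and 411). A probe was well above background where at least 50% of its spots carried that deposited flag, and between 31498 and 33211 probes were so on an array. No spot was saturated. A gene was well above background where 1 of its probes was, and took the mean of its probes that were so on at least 1 array. Changed means at least 2-fold. Where 1 of the 2 arrays was not well above background, the fold is a bound against the higher of the lowest well-above-background signal of that array and the probe's own signal there. Errors are those of Feature Extraction for the spot and cover neither cultures nor RNA preparation. Probes were named through RefSeq (GRCm38.p6; 26762 by accession, 3819 by symbol, 639 by synonym, 24461 unnamed), and mm9 positions are from the array files. Exon or UTR position was not derived here.

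The 10 genes and all lists were chosen with earlier results of these data known. All 10 genes and their probes are given, and from each other list up to 4 genes with the largest change between the control and day 8 among those detected on 1 of these arrays; other genes were named after their values were seen. The value of 1 gene named by this rule is not reported here. The search for repeated runs and gene values with dim probes at their bounds were added after the data were seen. Alternatives were other scalings (array median, quantile, normexp with an offset of 50 and quantile, the authors' table), detection flags, spot and probe rules, and thresholds. Python 3.11.15, numpy 2.4.6, pandas 2.3.3, R 4.3.3 and limma 3.58.1 were used.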

Additional observations from a re-analysis of the deposited data

How the results depend on the processing

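No paired analysis was possible because every group was a single array, with nothing tested. Of the 7 genes detected on all arrays, 3 remained when every probe of a gene had to be detected, and 7 genes were then detected on no array; with the flag for a positive and significant signal, 8 genes were detected on all arrays, Pou5f1 among them, and 1 gene (Sox2) on none; and without the probes holding repeated runs, chosen after the data were seen, 5 genes were detected on all arrays and 3 on none. The count of genes that rose at day 4 was 0 with normexp and quantile normalization and with a 4-fold threshold. At day 6 it was 0 with the array median, quantile normalization, normexp and quantile normalization, no filter, a 4-fold threshold and the positive and significant flag. At day 8 it was 1 with the brightest probe or only probes detected on both arrays (Tdgf1), and 1 with a 1.5-fold threshold (Fut4). Dim probes at their bounds, chosen after the data were seen, changed no count but turned the median of the 7 genes at day 8 from -0.21 to 0.21. No other setting changed a count of changed genes, and no gene fell under any. Fut4 probe A_52_P200458 differed from control by 0.94, 0.53 and 0.30 on days 4, 6 and 8 with normexp and quantile normalization. The offset of 50 in that setting makes folds of so dim a probe smaller. At day 8 the probe differed by 0.49 with the array median and 0.53 with quantile normalization. Tdgf1 probe A_55_P1968028 differed at day 8 by 0.78 with the array median, 0.98 with quantile normalization and 0.88 with normexp and quantile normalization, all below 2-fold. The array median moved all measured probes by -0.14, -0.13 and -0.27 at days 4, 6 and 8, and with it the Sall4, Lin28a and Utf1 probes differed by -0.47, -0.50 and -0.48 at day 8 and the Nanog probe by 0.0025. The arrays limit what can be said of Pou5f1, Sox2 and Zfp42, none of whose probes carried the flag for a signal well above background.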
